A study of Mus musculus with 6 samples.

Results

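The 42 genes described here encode the machinery with which a cell enters mitosis, builds its spindle, attaches and separates its chromosomes and divides. They were taken as a list of gene symbols with no threshold on a measured value, though the list was drawn up with earlier results of these data known. Each symbol matched 1 of the 55416 genes in the count tables. RNA was sequenced in 6 libraries of splenic T cells, purified as CD3+ cells from C57BL/6 mice, all labelled WT, that had received a graft. The 3 isograft libraries come from recipients of a graft from a genetically identical donor and the 3 allograft libraries from recipients of a graft from a genetically different donor. All samples were kept in culture medium with fetal bovine serum and antibiotics before RNA extraction with TRIzol and library preparation with a SMARTER mRNA kit. The labels do not name the organ grafted, the donor strain, the age of the mice, the time since grafting or how long the cells were cultured. They also do not say whether each library is a separate mouse, so a p-value here measures only the spread among these 6 libraries, and that spread may be technical.

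Resting T cells leave the cell cycle and divide rapidly once they are activated. Entry into mitosis is driven by the kinase CDK1 with cyclin A or B, which CDC25 phosphatases switch on and the kinases WEE1 and PKMYT1 hold off. The kinetochore then couples each centromere to spindle microtubules, the spindle checkpoint delays anaphase until every chromosome is attached, and the anaphase-promoting complex (APC/C) ends mitosis by marking cyclins and other proteins for degradation. Most of these genes are transcribed late in the cycle under MuvB, B-MYB and FOXM1, and are repressed in resting cells by the DREAM complex through a promoter sequence called the cell cycle genes homology region (CHR).

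Library totals ran from 30066137 to 37821738 counts. Levels are given in CPM, counts scaled to a common library size after TMM scaling (trimmed mean of M values). Values per library stand in the order of replicates 1, 2 and 3, and all others are mean ± SD (n = 3). Log2 fold changes set allograft against isograft libraries, below 0 where allograft was lower, and are given ± SE, and the words rose and fell are used for an adjusted p below 0.05 in edgeR's quasi-likelihood test over the 14926 genes with enough counts. T cell genes were detected in every library, but so were B cell genes. The 12 T cell markers measured summed to 1976 to 2075 CPM over the isograft and 1384 to 1531 CPM over the allograft libraries. The 10 B cell markers summed to 1352 to 1457 CPM over the isograft and 1629 to 1780.2 CPM over the allograft libraries, and the 9 other than Fcer2a, the low-affinity IgE receptor, to 1299 to 1403 CPM over the isograft and 1277 to 1390.2 CPM over the allograft libraries. In such bulk samples fewer cells of a type and less RNA per cell cannot be told apart.

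The mitotic genes were lower in the allograft libraries. All 42 members had enough counts to be tested, and 31 fell while 0 rose. Across all genes tested 29.1% fell and 28.7% rose, the shares to set beside the counts by role and by list below. The median log2 fold change of the members was -0.49, against -0.01 over all genes tested, and 40 of the 42 values were below 0. In 34 members all 3 allograft libraries lay below all 3 isograft libraries, an arrangement found for 32.1% of all genes tested. The changes were mostly modest: 5 members fell at least 2-fold, which 10.1% of all genes tested did. These 5 were Cdc25b, Cdc25c, Ndc80, Cenpa and Ccnb2. The proliferation marker most often read, Mki67, was among the 11 members that did not pass.

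**Figure D1:**
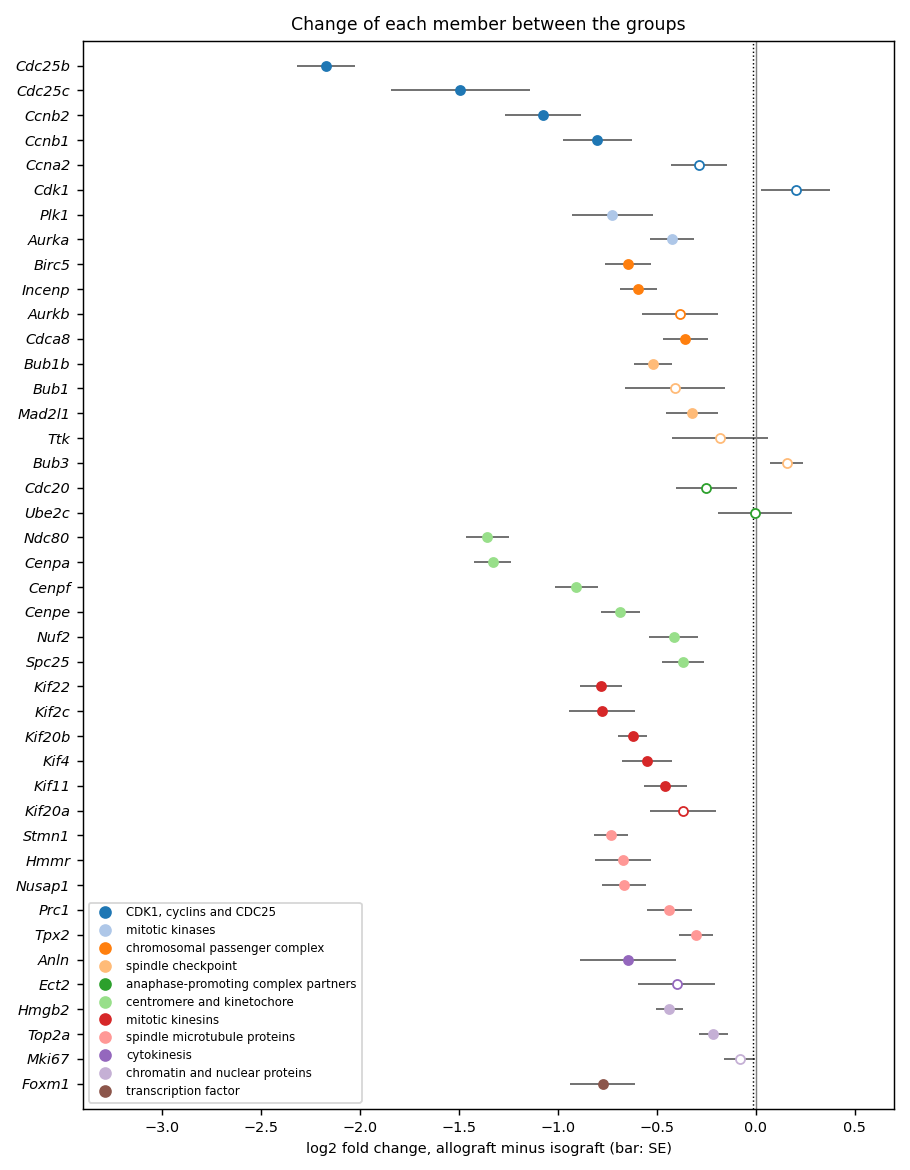
Log2 fold change (allograft minus isograft, horizontal axis) of each of the 42 members, coloured and grouped by role, with the SE as a bar. Filled points passed the test and open points did not, the grey line marks 0 and the dotted line the median of all genes tested (-0.01). The points run from -2.17 for Cdc25b to 0.20 for Cdk1, and the 31 filled points all lie to the left of 0.

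Of the 26 members with at least 10 CPM in isograft libraries 24 fell, and of the 16 members below 10 CPM 7 fell. This cut is no independent result, because a member that fell can reach it through its isograft level alone. Cdc25b stood at 34.6 ± 0.909 CPM in isograft and 7.66 ± 2.12 CPM in allograft libraries. Birc5, Kif4, Hmmr, Nuf2 and Mad2l1 also averaged at least 10 CPM only in isograft libraries, and all of these fell. Among genes at large a stricter filter went with more calls in both directions. With at least 5 CPM in 3 libraries 36.6% of all genes fell and 35.2% rose. In the main fit 29.1% fell and 28.7% rose, and with no filter 16.5% fell and 15.3% rose. The share of all genes at the cut of 10 CPM was not computed. The lowest count in any library was 15, for Cdc25c. The scaling also sets the size of the changes: without the TMM factors, on total counts, the median over all genes shifted by -0.22 (log2), and 38 members fell and 0 rose, beside 40.8% of all genes that fell. The distance between the median of the members and that of all genes was -0.48 with TMM and -0.47 with total counts.

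The promoters are shown next because most members share a sequence there. The CHR is known from genes of this kind, as stated above, so its share describes the list and is no independent result. RefSeq promoter windows (GRCm38.p6, 250 bases before to 50 bases after the annotated transcription start) were at hand for 34 members, in 37 windows since some genes have more than 1. The CHR, searched as TTTGAA or TTCGAA on both strands, was in 83.8% of the members' windows and in 19.2% of all 32851 windows. The sequence CCAAT, the site of the factor NF-Y, was in 78.4% of the members' windows and 37.4% of all windows, on either strand, and both motifs were in 73.0% and 7.52%. In 1 member window a CHR and a CCAAT overlapped. The sequences TTTGGCGC, TTTCGCGC, TTTCCCGC and TTTGCCGC, which resemble the site of E2F factors, were in 2.70% of the members' windows, that is in Cdk1 alone, and in 2.26% of all windows. TATAAA was found in 2.70% of the members' windows, in Kif2c alone, against 13.6% of all windows.

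The 5 stretches below run from 170 bases before to 30 bases after the start. They show the member with the highest log2 fold change, Cdk1, the one with the lowest, Cdc25b, and the 3 others with the smallest p among those with a CHR in this stretch. Capitals mark a CHR (TTTGAA or TTCGAA) and CCAAT on either strand, so that ATTGG is CCAAT on the opposite strand.
Cdk1 (chr10:69352883-69353082, minus strand): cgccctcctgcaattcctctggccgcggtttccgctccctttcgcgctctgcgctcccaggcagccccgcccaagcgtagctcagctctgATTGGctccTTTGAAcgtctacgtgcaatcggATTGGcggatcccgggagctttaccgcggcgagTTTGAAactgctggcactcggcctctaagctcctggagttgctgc
Cdc25b (chr2:131186778-131186977, plus strand): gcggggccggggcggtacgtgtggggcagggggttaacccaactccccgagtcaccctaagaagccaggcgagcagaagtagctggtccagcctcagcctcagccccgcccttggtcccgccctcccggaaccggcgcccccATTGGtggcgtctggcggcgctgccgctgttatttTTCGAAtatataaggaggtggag
Cenpa (chr5:30666716-30666915, plus strand): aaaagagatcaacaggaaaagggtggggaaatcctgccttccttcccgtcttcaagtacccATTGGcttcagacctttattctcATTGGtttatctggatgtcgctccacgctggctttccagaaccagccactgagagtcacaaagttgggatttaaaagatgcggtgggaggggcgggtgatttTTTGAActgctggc
Kif20b (chr19:34922188-34922387, plus strand): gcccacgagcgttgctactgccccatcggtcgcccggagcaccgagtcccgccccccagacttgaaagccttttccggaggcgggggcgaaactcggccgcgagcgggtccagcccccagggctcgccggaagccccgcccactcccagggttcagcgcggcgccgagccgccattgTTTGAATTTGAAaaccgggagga
Cenpf (chr1:189688057-189688256, minus strand): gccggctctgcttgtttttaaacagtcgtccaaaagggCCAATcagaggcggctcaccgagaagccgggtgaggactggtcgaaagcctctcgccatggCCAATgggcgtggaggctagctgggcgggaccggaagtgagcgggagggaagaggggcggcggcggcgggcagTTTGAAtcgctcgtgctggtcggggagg

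Counted from the start, with no position 0, the CHR of Cdc25b begins at 8, that of Cenpa at 17 and that of Cenpf at 3. Kif20b has 2 in a row, at 8 and 14, and no CCAAT in its window. Cdk1 has a CHR at -71 and another at -15, with CCAAT at -80 and -48 in the stretch shown. The presence of a CHR did not separate the members that fell from the others: it was in 20 of the 26 members with a window that fell and in 8 of the 8 with a window that did not pass. In the DNA replication list described further on, a CHR was in 18.9% of 53 windows, CCAAT in 52.8% and an E2F-like sequence in 30.2%. In 145 windows of the other lists of mitosis genes and their regulators described further on, the shares were 38.6%, 55.2% and 15.9%. A match describes the letters only and does not show that a factor binds there.

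Of CDK1 and its direct regulators 4 of 6 genes fell and Cdk1 itself did not pass. Cdc25b, a phosphatase that activates CDK1 at the onset of mitosis (chromosome 2, 131028869 to 131040417, GRCm39), stood at 34.5, 33.7 and 35.5 CPM in the isograft libraries against 9.90, 5.69 and 7.39 in the allograft libraries. All allograft libraries lay far below the isograft libraries, which were close together. It was the largest fall of all members (log2 fold change -2.17 ± 0.15, adjusted p = 1.64e-09). Cdc25c, its relative in the same step (chromosome 18, 34866046 to 34884586), was among the lowest of the list, at 2.36, 1.6 and 1.34 CPM in the isograft libraries against 0.481, 0.759 and 0.640 in the allograft libraries, and fell (log2 fold change -1.49 ± 0.35, adjusted p = 0.00116). The groups did not overlap, but the isograft libraries themselves spanned a wide range.

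Of the cyclins, both B types fell and cyclin A2 did not pass. Ccnb2 (chromosome 9, 70314974 to 70328829) stood at 5.08, 5.01 and 6.92 CPM in the isograft libraries against 2.53, 2.76 and 2.77 in the allograft libraries (log2 fold change -1.07 ± 0.19, adjusted p = 7.68e-05). Ccnb1, the main mitotic cyclin (chromosome 13, 100915158 to 100923078), stood at 6.44, 7.18 and 7.08 CPM in the isograft libraries against 3.27, 3.72 and 4.91 in the allograft libraries (log2 fold change -0.80 ± 0.17, adjusted p = 0.000553). All allograft libraries were the lower ones for both genes. Both have an annotated processed copy, with 19 counts over the 6 libraries for Ccnb1-ps and 315 for Ccnb2-ps beside 830 for Ccnb2, so the level of Ccnb2 in particular is uncertain. Such copies were sought only under a member's own symbol, which also gave Kif22-ps and Kif4-ps with 0 counts. Copies of members under other names were not looked for. Ccna2 went from 8.31 ± 0.634 to 6.81 ± 0.752 CPM (log2 fold change -0.29 ± 0.14, adjusted p = 0.0931). It passed with total counts (-0.51, with an adjusted p of 0.00452) and without allograft replicate 3 (-0.38, with an adjusted p of 0.0469).

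Cdk1, the kinase that these proteins serve (chromosome 10, 69170976 to 69188768), had the highest log2 fold change of the list and did not pass. It stood at 4.54, 4.14 and 5.52 CPM in the isograft libraries against 6.22, 5.10 and 4.94 in the allograft libraries. The groups overlapped, with allograft replicate 1 the highest of all libraries (log2 fold change 0.20 ± 0.17, adjusted p = 0.339). With total counts the value was -0.02, with an adjusted p of 0.926, of the opposite sign.

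The kinases Plk1 and Aurka both fell. Plk1, the polo-like kinase of centrosome maturation and mitotic entry (chromosome 7, 121758662 to 121769096), stood at 4.44, 7.05 and 5.18 CPM in the isograft libraries against 3.56, 2.72 and 3.84 in the allograft libraries (log2 fold change -0.72 ± 0.20, adjusted p = 0.00473). Isograft replicate 2 was the highest, and without it Plk1 did not pass (-0.51, with an adjusted p of 0.058). Aurka, the Aurora kinase of the spindle poles, went from 16.2 ± 0.675 to 12.0 ± 0.938 CPM (log2 fold change -0.42 ± 0.11, adjusted p = 0.00275).

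Foxm1, a transcription factor that activates many genes of this list (chromosome 6, 128339930 to 128353109), stood at 7.56, 6.83 and 6.98 CPM in the isograft libraries against 3.52, 4.90 and 4.09 in the allograft libraries. The 3 isograft libraries were close together and all allograft libraries lay lower (log2 fold change -0.77 ± 0.16, adjusted p = 0.000463).

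Centromere and kinetochore genes all fell, 6 of 6, with a median of -0.80. Cenpa, the histone H3 variant that marks centromeres (chromosome 5, 30824121 to 30832174), stood at 58.7, 58.1 and 58.7 CPM in the isograft libraries against 20.0, 23.9 and 26.0 in the allograft libraries. The isograft libraries differed by less than 1 CPM, and every allograft library was far lower (log2 fold change -1.33 ± 0.09, adjusted p = 3.19e-10). Ndc80, the microtubule-binding subunit of the outer kinetochore (chromosome 17, 71803095 to 71833852), stood at 54.9, 49.7 and 51.4 CPM in the isograft libraries against 20.2, 16.7 and 24.1 in the allograft libraries (log2 fold change -1.36 ± 0.11, adjusted p = 4.02e-09).

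Nuf2 and Spc25 encode partners of the NDC80 protein in the same complex, and their falls were smaller. Nuf2 went from 13.3 ± 1.69 to 9.98 ± 0.234 CPM (log2 fold change -0.41 ± 0.12, adjusted p = 0.00738). Spc25 went from 25.2 ± 2.39 to 19.5 ± 1.94 CPM (log2 fold change -0.37 ± 0.11, adjusted p = 0.00585). Whether the fall of Ndc80 differs from those of its partners was not tested.

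Cenpf, a large protein of the outer kinetochore and nuclear matrix (chromosome 1, 189372803 to 189420283), stood at 38.3, 35.3 and 39.8 CPM in the isograft libraries against 18.2, 18 and 24.2 in the allograft libraries (log2 fold change -0.91 ± 0.11, adjusted p = 8.35e-07). Cenpe, the kinesin that carries chromosomes to the spindle equator (chromosome 3, 134918298 to 134979372), stood at 51.6, 56.7 and 54.8 CPM in the isograft libraries against 30.6, 31.2 and 39.8 in the allograft libraries (log2 fold change -0.69 ± 0.10, adjusted p = 5.71e-06). In both, allograft replicate 3 was the highest of its group and still below every isograft library.

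Among the spindle checkpoint genes 2 of 5 fell (40%), not far from the 29.1% of all genes tested, and the median was -0.32. Bub1b, the checkpoint protein BUBR1 (chromosome 2, 118428692 to 118472072), stood at 36.8, 42.9 and 46.0 CPM in the isograft libraries against 31.2, 29.3 and 27.0 in the allograft libraries (log2 fold change -0.52 ± 0.10, adjusted p = 0.000103). Mad2l1, the inhibitor MAD2 that holds back CDC20, went from 10.0 ± 0.705 to 8.01 ± 0.705 CPM (log2 fold change -0.32 ± 0.13, adjusted p = 0.0404). This last call was fragile. It was lost with DESeq2 (-0.32, with an adjusted p of 0.0557) and the replicate block (-0.33, with an adjusted p of 0.0591), and without isograft replicate 1 (-0.28, with an adjusted p of 0.129), isograft replicate 2 (-0.33, with an adjusted p of 0.0859), allograft replicate 1 (-0.32, with an adjusted p of 0.0742) or allograft replicate 3 (-0.28, with an adjusted p of 0.105).

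The checkpoint kinase Bub1 stood at 5.02, 3.58 and 4.49 CPM in the isograft libraries against 3.88, 1.83 and 4.12 in the allograft libraries. Only allograft replicate 2 was below every isograft library, and the gene did not pass (log2 fold change -0.41 ± 0.25, adjusted p = 0.181), though it did with total counts (-0.63, with an adjusted p of 0.0358). Ttk, the kinase MPS1 at the head of the checkpoint, went from 2.39 ± 0.486 to 2.11 ± 0.259 CPM without passing (log2 fold change -0.18 ± 0.24, adjusted p = 0.547). Bub3, a binding partner of BUB1 and BUBR1, was the 1 member in which all allograft libraries lay above all isograft libraries. It stood at 40.8, 34.8 and 36.5 CPM in the isograft libraries against 41.6, 41.9 and 41.2 in the allograft libraries (log2 fold change 0.16 ± 0.08, adjusted p = 0.123), did not pass, and had a value of -0.07, with an adjusted p of 0.537 with total counts.

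The partners of the APC/C did not pass. Cdc20, its activator in mitosis, went from 6.30 ± 0.384 to 5.29 ± 0.618 CPM (log2 fold change -0.25 ± 0.16, adjusted p = 0.18), and passed with total counts (-0.47, with an adjusted p of 0.0132). Ube2c, its ubiquitin-conjugating enzyme, was at 4.04 ± 0.566 and 4.03 ± 0.446 CPM (log2 fold change -0.00 ± 0.19, adjusted p = 0.988).

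The chromosomal passenger complex, which corrects faulty attachments and then directs cytokinesis, had 3 of 4 members that fell. Incenp, its scaffold (chromosome 19, 9849660 to 9876915), had the most counts of the subunits, at 156, 195 and 179.7 CPM in the isograft libraries against 133, 109 and 109.5 in the allograft libraries. Allograft replicate 1 was the highest of its group and below every isograft library (log2 fold change -0.59 ± 0.09, adjusted p = 2.65e-05). Birc5, the subunit survivin (chromosome 11, 117740077 to 117746569), stood at 15.7, 14.4 and 16.7 CPM in the isograft libraries against 9.42, 10.0 and 10.5 in the allograft libraries (log2 fold change -0.65 ± 0.11, adjusted p = 7.12e-05).

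Cdca8, the subunit borealin, went from 17.6 ± 1.78 to 13.7 ± 1.10 CPM (log2 fold change -0.36 ± 0.11, adjusted p = 0.011), which did not pass without isograft replicate 3 (-0.30, with an adjusted p of 0.0605) or allograft replicate 2 (-0.30, with an adjusted p of 0.0623). The kinase of the complex, Aurkb, did not pass at 5.64 ± 0.780 against 4.33 ± 1.10 CPM (log2 fold change -0.38 ± 0.19, adjusted p = 0.0945). It passed without allograft replicate 2, the allograft library in which it was highest (-0.61, with an adjusted p of 0.0166), and with total counts (-0.60, with an adjusted p of 0.00916).

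**Figure D2:**
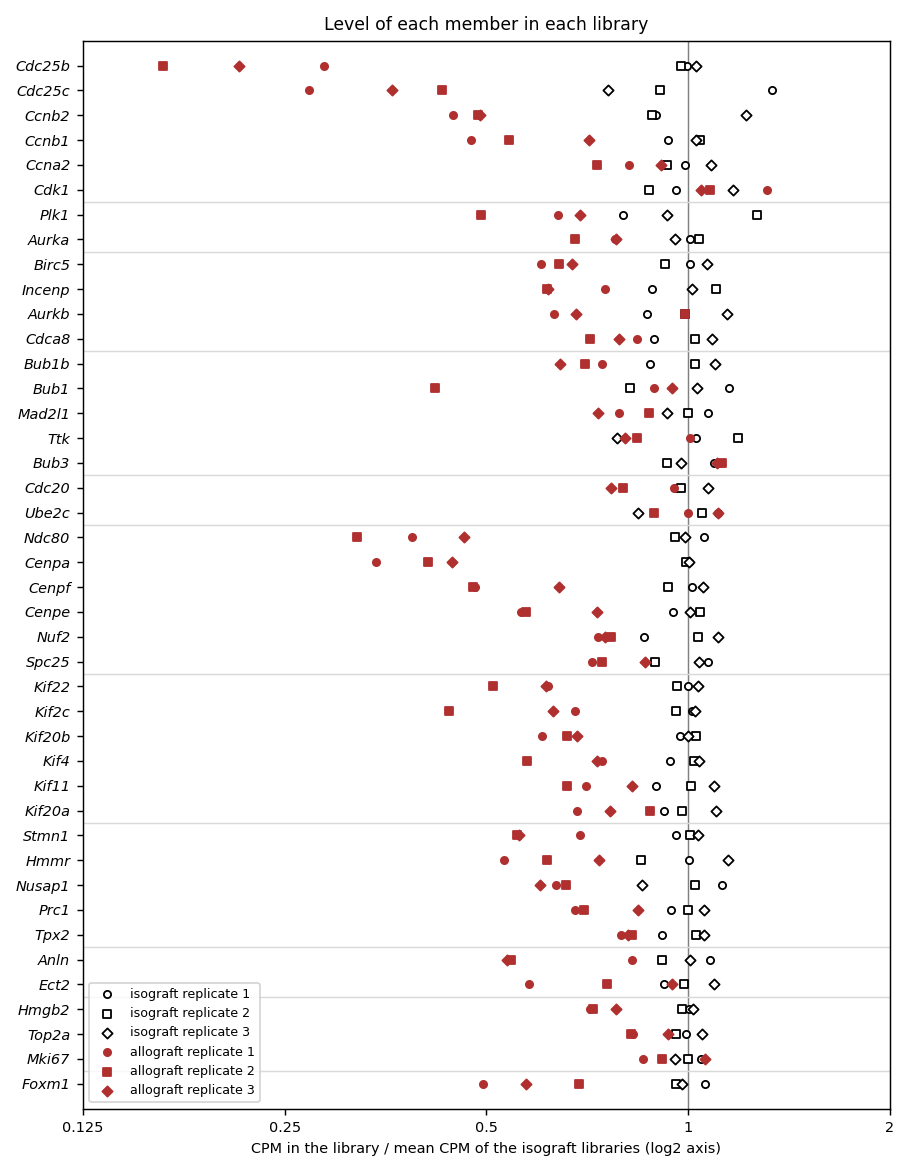
CPM of each member in each of the 6 libraries, divided by the mean of the 3 isograft libraries (horizontal log2 axis), with open symbols for isograft and red symbols for allograft replicates 1, 2 and 3. In 34 rows all red symbols lie to the left of all open ones, and in Bub3 all lie to the right.

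Of the mitotic kinesins 5 of 6 fell. Kif22, which moves chromosome arms (chromosome 7, 126626901 to 126641643), stood at 25.2, 24.3 and 26.1 CPM in the isograft libraries against 15.5, 12.9 and 15.5 in the allograft libraries (log2 fold change -0.78 ± 0.11, adjusted p = 2.58e-06). Kif2c, a microtubule depolymerase of the centromere (chromosome 4, 117016836 to 117039836), stood at 7.86, 7.45 and 7.95 CPM in the isograft libraries against 5.25, 3.41 and 4.87 in the allograft libraries (log2 fold change -0.78 ± 0.17, adjusted p = 0.000532). Kif20b, a kinesin of cytokinesis (chromosome 19, 34899761 to 34953145), stood at 87.0, 92.1 and 89.3 CPM in the isograft libraries against 54.2, 59.0 and 61.2 in the allograft libraries (log2 fold change -0.62 ± 0.07, adjusted p = 5.84e-07). In all 3 the groups stood clear of each other.

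Kif4, the chromokinesin KIF4A (chromosome X, 99669343 to 99770820), stood at 12.5, 13.7 and 13.9 CPM in the isograft libraries against 9.93, 7.69 and 9.78 in the allograft libraries (log2 fold change -0.55 ± 0.13, adjusted p = 0.00104). Kif11, the motor that pushes spindle poles apart, went from 28.5 ± 2.86 to 20.7 ± 2.43 CPM (log2 fold change -0.46 ± 0.11, adjusted p = 0.00113). Kif20a, a kinesin of the central spindle, went from 5.81 ± 0.530 to 4.51 ± 0.568 CPM without passing (log2 fold change -0.37 ± 0.17, adjusted p = 0.067). It passed without allograft replicate 2 (-0.46, with an adjusted p of 0.0474), with total counts (-0.59, with an adjusted p of 0.00479) and among genes of at least 5 CPM in 3 libraries (-0.39, with an adjusted p of 0.0417). Of its exonic bases 29.3% also belong to Cdc23 on the opposite strand, and no strand option is recorded for the counting. Other members share bases with an opposite-strand neighbour too: 22.8% of Ube2c, 15.1% of Kif4, 12.7% of Cdc25c, 12.5% of Ccna2 and 11.1% of Prc1. Reads of these genes and their neighbours cannot be told apart there. Whether reads in the shared bases were counted for 1 gene, for both or for neither was not examined. The neighbours' counts over all libraries differ widely, and they do not show that a neighbour's reads entered a member's count. Cdc23 had 12415 beside 1010 for Kif20a, and Exosc9 11832 beside 1474 for Ccna2. Rccd1 had 4508 beside 2941 for Prc1, and Pdzd11 612 beside 2223 for Kif4. Gm3550 had 43 beside 241 for Cdc25c, and Tnnc2 only 2 beside 785 for Ube2c.

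All 5 spindle microtubule proteins fell. Stmn1, the microtubule-destabilising protein stathmin (chromosome 4, 134195631 to 134201154), stood at 82.2, 86.2 and 88.7 CPM in the isograft libraries against 59.2, 47.7 and 47.9 in the allograft libraries (log2 fold change -0.73 ± 0.09, adjusted p = 4.83e-07). Hmmr, a spindle assembly factor (chromosome 11, 40592222 to 40624249), stood at 14.5, 12.3 and 16.6 CPM in the isograft libraries against 7.69, 8.90 and 10.7 in the allograft libraries (log2 fold change -0.67 ± 0.14, adjusted p = 0.000441). Nusap1, which bundles microtubules near chromosomes (chromosome 2, 119448779 to 119481725), stood at 27.6, 25.1 and 21.0 CPM in the isograft libraries against 15.6, 16.1 and 14.8 in the allograft libraries (log2 fold change -0.67 ± 0.11, adjusted p = 3.82e-05). In Hmmr the lowest isograft library, replicate 2, was only a little above the highest allograft library, replicate 3.

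Prc1, which cross-links the central spindle, went from 17.2 ± 0.956 to 12.7 ± 1.54 CPM (log2 fold change -0.44 ± 0.11, adjusted p = 0.00286). Tpx2, the activator of Aurora A on the spindle, went from 44.3 ± 3.38 to 35.9 ± 0.669 CPM (log2 fold change -0.30 ± 0.08, adjusted p = 0.0043).

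For cytokinesis, Anln, the actin-binding protein anillin (chromosome 9, 22243308 to 22300484), stood at 3.14, 2.66 and 2.93 CPM in the isograft libraries against 2.40, 1.59 and 1.56 in the allograft libraries and fell (log2 fold change -0.65 ± 0.24, adjusted p = 0.0277). With 44 to 108 counts per library it did not pass without isograft replicate 1 (-0.59, with an adjusted p of 0.0827) or 3 (-0.64, with an adjusted p of 0.06) and without allograft replicate 2 (-0.55, with an adjusted p of 0.1) or 3 (-0.55, with an adjusted p of 0.0876). Ect2, the exchange factor that switches on RhoA at the division plane, went from 4.93 ± 0.434 to 3.74 ± 0.903 CPM and did not pass (log2 fold change -0.40 ± 0.20, adjusted p = 0.088). It passed without allograft replicate 3 (-0.59, with an adjusted p of 0.0201) and with total counts (-0.62, with an adjusted p of 0.00975).

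Of the 3 chromatin and nuclear proteins, all of them abundant, 2 fell. Mki67, which coats mitotic chromosomes and is the standard marker of cycling cells (chromosome 7, 135291513 to 135318090), stood at 269, 258 and 246 CPM in the isograft libraries against 221, 236 and 274 in the allograft libraries. Allograft replicate 3 was the highest and allograft replicate 1 the lowest of the 6 libraries, and the groups overlapped (log2 fold change -0.08 ± 0.08, adjusted p = 0.389). It passed without allograft replicate 3 (-0.18, with an adjusted p of 0.0439) and with total counts (-0.30, with an adjusted p of 0.00285).

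Top2a, the topoisomerase that untangles sister chromatids (chromosome 11, 98883769 to 98915015), stood at 180.0, 174 and 190.4 CPM in the isograft libraries against 150.2, 149 and 169.5 in the allograft libraries (log2 fold change -0.22 ± 0.07, adjusted p = 0.0168). The groups did not overlap, but it did not pass without isograft replicate 3 (-0.18, with an adjusted p of 0.0782) or allograft replicate 2 (-0.18, with an adjusted p of 0.0919). Hmgb2, a DNA-bending chromatin protein (chromosome 8, 57964941 to 57969033), went from 782 ± 14.2 to 578 ± 28.4 CPM (log2 fold change -0.44 ± 0.07, adjusted p = 1.59e-05).

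Levels of different genes can be set side by side only per length, here as CPM per kilobase of annotated exon. Hmgb2 was the highest in both groups, at 261 ± 4.73 in isograft and 192 ± 9.47 in allograft libraries. Stmn1 at 44.6 ± 1.70 and Incenp at 40.9 ± 4.50 followed in isograft libraries and were within their spread of each other. In allograft libraries Incenp at 27.1 ± 3.17, Stmn1 at 26.8 ± 3.43 and Mki67 at 24.2 ± 2.70 were within their spread. The lowest in isograft libraries were Cdc25c at 0.359 ± 0.107 and Anln at 0.321 ± 0.0266 CPM per kilobase.

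Mki67, at 25.6 ± 1.14 CPM per kilobase in isograft libraries, stood far above Cdk1 at 0.959 ± 0.144, Ccnb1 at 1.64 ± 0.0949 and Plk1 at 2.53 ± 0.612. The 4 genes with the most counts, Hmgb2, Mki67, Incenp and Top2a, made up most of the summed CPM of the list. All members summed to 2217 to 2274 CPM over the isograft and 1574 to 1726 CPM over the allograft libraries, and the 38 members other than those 4 to 826 to 864 CPM over the isograft and 515 to 563 CPM over the allograft libraries.

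The order of the members per length shifted for a few genes. Cdc25b was at place 10 of 42 in isograft and 21 in allograft libraries, Cenpa at 7 and 12, and Ndc80 at 11 and 15. Bub3 moved the other way, from 16 to 10. Reads that map to several places were left out by the counting tool's default, so genes with processed copies elsewhere may be undercounted.

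**Figure D3:**
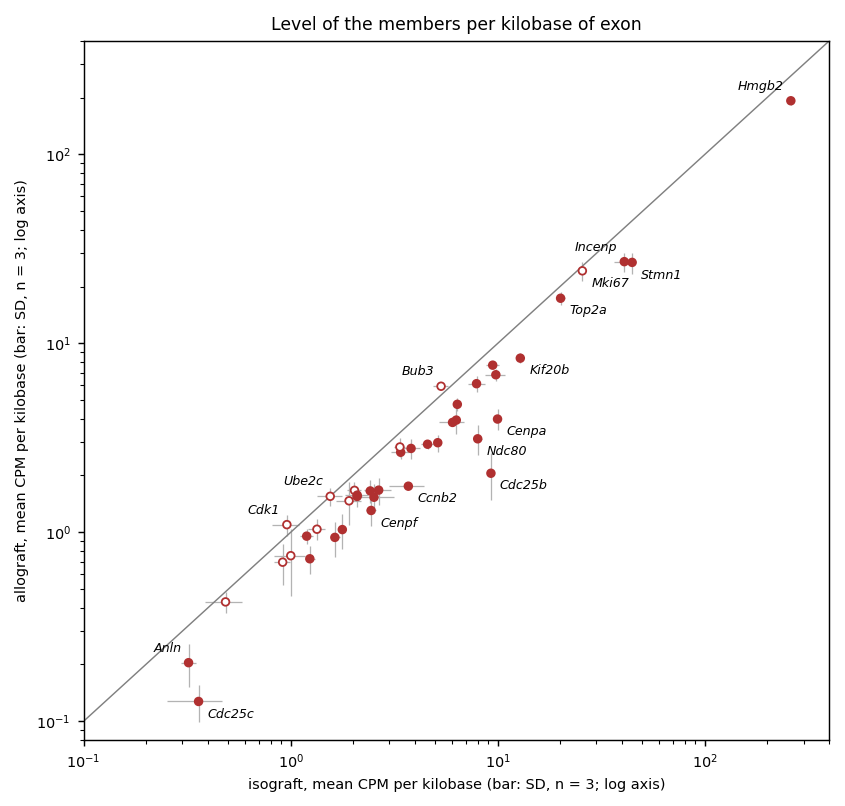
Mean CPM per kilobase of exon of each member in isograft (horizontal) and allograft libraries (vertical), both on log axes, with SD bars (n = 3). Filled points fell, open points did not pass, and the line marks equal levels. Hmgb2 stands apart at the top (261 and 192), and Cdc25b, Cenpa and Ndc80 lie farthest below the line among the better expressed genes.

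The third library of each group was often its highest. Isograft replicate 3 had the highest level of its group in 24 of the 42 members and allograft replicate 3 in 21. The median deviation of the members from their group mean was 0.05 and 0.07 (log2) in these libraries, and -0.06 in allograft replicate 2, the lowest. Every one of the 6 fits that left out 1 library had 28 to 32 falls and 0 rises among the members.

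In 8 other lists, of mitosis genes and, in the DREAM, MuvB and E2F list, of their transcription regulators, 147 genes were found and tested. Of these 63 fell and 29 rose, with a median of -0.24. That is 42.9% and 19.7% of them, beside 29.1% and 28.7% of all genes tested. With total counts 90 fell and 18 rose, with 40.8% and 19.9% of all genes. Condensin, which compacts mitotic chromosomes, had 6 of 8 genes that fell and 0 that rose. Its ATPase subunit gene Smc4 stood at 1302, 1269.5 and 1335 CPM in the isograft libraries against 480.1, 466 and 576 in the allograft libraries (log2 fold change -1.36 ± 0.08, adjusted p = 2.45e-11), and its allograft libraries lay far below the isograft libraries. The list of other mitotic kinesins and spindle proteins fell in 14 of 16 cases. Among them were Cit, the citron kinase of cytokinesis (-1.05 ± 0.13), and Racgap1, the partner of ECT2 in the central spindle (-1.01 ± 0.12). The largest fall of the list was Kif3a (-1.56 ± 0.12), which is a transport kinesin and not a mitotic one. The 1 gene of that list that rose was Kif15, a motor that supports the spindle beside KIF11, at 29.4, 27.8 and 30.4 CPM in the isograft libraries against 70.5, 64.6 and 100.3 in the allograft libraries (log2 fold change 1.43 ± 0.15, adjusted p = 9.93e-06).

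Centrosome and spindle pole genes fell in 14 of 23 cases and rose in 3, with falls of Numa1, the spindle pole protein NuMA (-1.11 ± 0.08), and Haus4, a subunit of the augmin complex (-1.28 ± 0.13). The 3 that rose were Plk4 (0.68 ± 0.10), Haus2 (0.61 ± 0.15) and Haus6 (0.32 ± 0.09). Of the other Haus genes, Haus5 and Haus8 fell, and Haus1, Haus3 and Haus7 did not pass. In the list of the constitutive centromere network and outer kinetochore 13 of 34 fell (38.2%) and 2 rose (5.88%), with a median of -0.21. With total counts 20 of this list fell and 2 rose. Cohesin and its regulators fell in 7 of 17 cases (41.2%) and rose in 3 (17.6%), and with total counts 10 fell and 0 rose. The subunits and regulators of the APC/C rose in 6 of 17 cases (35.3%) and fell in 3 (17.6%), and with total counts 3 rose and 9 fell. Of all genes tested 29.1% fell and 28.7% rose, and with total counts 40.8% fell and 19.9% rose.

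Of the 14 genes of the G2/M switch list 7 rose and 1 fell, with a median of 0.31. With total counts 4 rose and 2 fell, where 19.9% of all genes rose and 40.8% fell. Chosen after their values were seen, Wee1 and Pkmyt1, the kinases that hold CDK1 inactive, rose: Wee1 stood at 4.60, 3.80 and 3.52 CPM in the isograft libraries against 6.89, 7.35 and 7.39 in the allograft libraries (log2 fold change 0.86 ± 0.16, adjusted p = 0.000132), and Pkmyt1 went from 7.42 ± 0.354 to 10.8 ± 1.02 CPM (log2 fold change 0.54 ± 0.13, adjusted p = 0.00136). Cdc25a, the CDC25 phosphatase that also acts at the start of S phase, was chosen in the same way and rose from 18.4 ± 1.82 to 25.5 ± 1.41 CPM (log2 fold change 0.47 ± 0.10, adjusted p = 0.000568), where Cdc25b and Cdc25c fell. These 3 rises passed under every alternative that tested the gene. The rises were not confined to the kinases that hold CDK1 inactive. In the main fit Cks2 (0.52 ± 0.16), Arpp19 (0.47 ± 0.10), Bora (0.34 ± 0.115) and Ensa (0.29 ± 0.07) rose as well. The 1 gene of the list that fell was Ccnf (-0.60 ± 0.15).

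Among the regulators of this gene set, the DREAM, MuvB and E2F list had 7 of 18 that rose and 5 that fell, the latter a share near that of all genes. With total counts 6 rose and 9 fell, where 19.9% of all genes rose and 40.8% fell. Rbl2, the pocket protein p130 of the DREAM complex, went from 58.0 ± 3.29 to 19.9 ± 2.51 CPM (log2 fold change -1.54 ± 0.10, adjusted p = 5.15e-11). Of its exonic bases 21.0% are shared with genes on the opposite strand. Mybl2, the activator B-MYB, stood at 11.5, 8.53 and 10.5 CPM in the isograft libraries against 27.2, 27.2 and 26.5 in the allograft libraries (log2 fold change 1.41 ± 0.11, adjusted p = 2.56e-09), so it rose where Foxm1 fell. The E2F partner genes Tfdp1 and Tfdp2 changed by 1.06 ± 0.08 and -1.54 ± 0.14, 1 up and 1 down.

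The genes of DNA replication, the step before mitosis, changed about as often as genes at large. Of 53 genes 15 rose and 15 fell (28.3% each), close to the 28.7% and 29.1% of all genes tested, with a median of -0.04, beside 0 and 31 of the 42 mitotic genes with a median of -0.49. With total counts 6 replication genes rose and 25 fell, with a median of -0.27. In that setting 19.9% of all genes rose and 40.8% fell, with a median of -0.24. The genes of this list with the smallest p were Tk1, a thymidine kinase (1.70 ± 0.08), Rpa1, a single-strand binding protein (-0.99 ± 0.08), Orc2, a subunit of the origin recognition complex (1.03 ± 0.09), Pcna, the polymerase clamp (0.77 ± 0.07), and Pold2, a subunit of DNA polymerase delta (1.03 ± 0.10). No test of the difference between the lists was made.

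**Figure D4:**
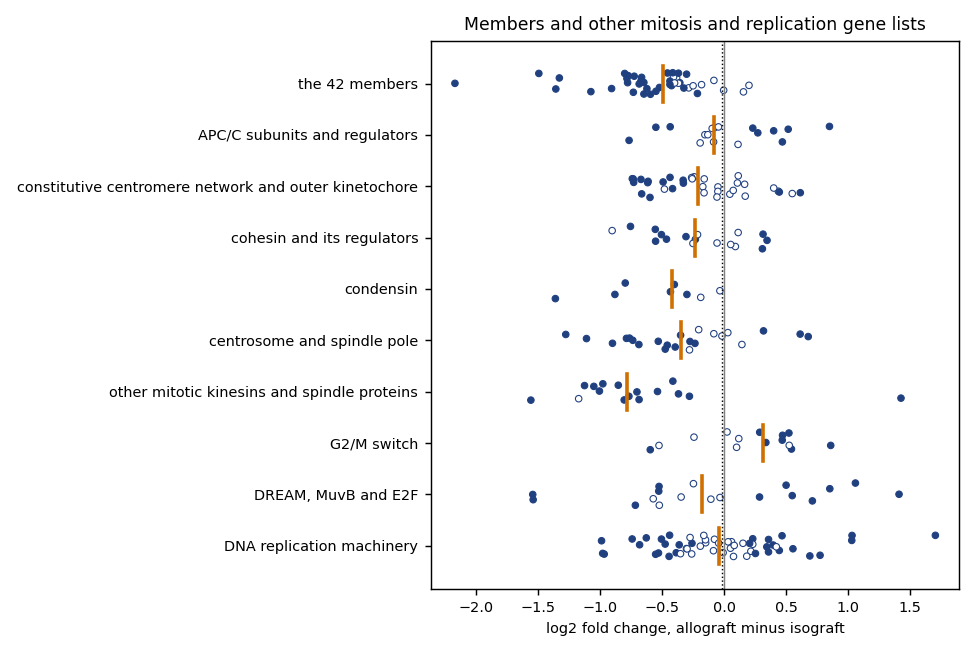
Log2 fold change (allograft minus isograft) of the 42 members, of 8 other lists of mitosis genes and their regulators, and of the DNA replication list. Each gene is 1 point, filled where it passed the test. The list's median is an orange bar and the median of all genes (-0.01) a dotted line. The median is -0.49 for the members, -0.79 for other mitotic kinesins and spindle proteins, 0.31 for the G2/M switch and -0.04 for DNA replication.

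Markers of the cell types that the samples could hold moved too. Of the 12 T cell markers, whose sums are given above, 7 fell and 3 rose, and with total counts 9 fell and 2 rose. Among those that fell, Cd3e, the CD3 epsilon chain, went from 123 ± 3.0 to 79.1 ± 12.5 CPM and Cd4 from 211 ± 18.5 to 71.2 ± 4.99 CPM. The 3 that rose were Cd5, from 30.8 ± 2.48 to 80.4 ± 5.46 CPM, Trac, from 50.9 ± 1.79 to 83.7 ± 7.39 CPM, and Cd8a, from 68.3 ± 1.94 to 81.8 ± 6.90 CPM. Of the 10 B cell markers 4 fell, namely Cd79a, Cd79b, Cd22 and Blk, and 4 rose, and with total counts 5 fell and 2 rose. Of all genes 40.8% fell and 19.9% rose with total counts. Fcer2a, among those that rose, went from 52.8 ± 0.951 to 378 ± 22.6 CPM, and the sum of the other 9 overlapped between the groups. The markers singled out in this paragraph and the next were chosen after their values were seen. Germinal centre B cells divide fast: their 8 markers summed to 79.7 to 82.9 CPM over the isograft and 127 to 134 CPM over the allograft libraries, mostly from Fas and Bcl6, which other lymphocytes also express. Of these 8 markers 3 rose and 1 fell.

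The 7 plasma cell markers summed to 221 to 232 CPM over the isograft and 769.6 to 868 CPM over the allograft libraries, mostly from Irf4, which activated T cells express too. The 6 other than Irf4 summed to 106 to 116 CPM over the isograft and 99.7 to 111 CPM over the allograft libraries. Of the plasma cell markers 6 were tested, and 3 rose and 1 fell, so single markers moved in both directions. With total counts 1 rose and 2 fell. Of 11 erythroid precursor markers Slc4a1 was among those at 0 in all libraries, and the sum, 43.8 to 51.1 CPM over the isograft and 211 to 249 CPM over the allograft libraries, was nearly all Tfrc, the transferrin receptor of dividing cells in general. Among 5 thymocyte markers Rag2 and Ptcra were at 0 in all libraries, and the sum, 24.2 to 27.1 CPM over the isograft and 8.71 to 11.6 CPM over the allograft libraries, was nearly all Cd1d1, which other cells also express. The 2 thymocyte markers with enough counts to be tested fell. The 11 myeloid markers summed to 109.8 to 117 CPM over the isograft and 91.4 to 102 CPM over the allograft libraries. Of the 8 myeloid markers tested 1 rose and 3 fell. The 7 NK cell markers summed to 56.6 to 58.4 CPM over the isograft and 73.9 to 78.9 CPM over the allograft libraries and the 6 other than Eomes to 43.0 to 45.8 CPM over the isograft and 37.1 to 42.4 CPM over the allograft libraries. Eomes rose, Gzma fell and the other 5 did not pass. The 6 dendritic cell markers summed to 25.4 to 27.9 CPM over the isograft and 69.4 to 73.9 CPM over the allograft libraries and the 5 other than Zbtb46, the 1 that rose, to 11.2 to 14.3 CPM over the isograft and 12.3 to 14.2 CPM over the allograft libraries. The part of these shifts in the levels of the mitotic genes was not tested.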

How the data were processed

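The deposited values are whole-number counts of read pairs per gene, made by the authors with featureCounts 1.6.0 on HISAT alignments, per the file headers; no strand or multi-mapping option is recorded. The headers name Ensembl release 104 on GRCm39, the submitters' processing notes GRCm38 and mm10. Gene coordinates are the files' own (GRCm39); promoter windows are RefSeq's (GRCm38.p6). Symbols matched for 52083 of 55416 genes. edgeR 4.0.16 (R 4.3.3; filterByExpr, TMM, robust quasi-likelihood test, Benjamini-Hochberg adjustment over 14926 genes holding 99.92% of counts, threshold 0.05) compared the groups. Each SE was derived from the fold change and the F statistic. The members, the lists and the rule for named genes were chosen with earlier results of these data known. The rule takes all members. Every library's value is given for those past the threshold with at least 0.5 log2 change and for 6 members whatever their result. Of each list of mitosis genes or their regulators up to 4 genes with at least 2-fold change are taken, and 5 replication genes by p. The procedure was tested on simulated data. Within groups, libraries differed by more than sampling noise (chi-square per degree of freedom 10.2 to 21.7). Alternatives, with DESeq2 1.42.0 and limma 3.58.1 among them, are in the closing section.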

Additional observations from a re-analysis of the deposited data

How the results depend on the processing

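The alternatives were RLE scaling, total counts, 2 filters (none, or at least 5 CPM in 3 libraries), a non-robust fit, DESeq2, limma-voom, a block for the replicate number, and each library left out; those for the other named genes were added after seeing the data. No member rose in any of them. The falls numbered 28 to 32 when 1 library was left out, 38 with total counts and 29 to 31 in the others. The members' median of -0.49 was -0.71 with total counts, -0.56 with at least 5 CPM (8 members not tested) and -0.56 to -0.46 with 1 library left out. Of the 31 falls 26 kept the call in every alternative that tested them; Mad2l1, Anln, Top2a, Cdca8 and Plk1 did not, and 7 others gained it in at least 1. The replicate numbers pair nothing known: deviations of same-numbered libraries correlated at -0.11, 0.02 and -0.05 over genes. With the replicate block 30 members fell and 0 rose, with a median of -0.49. Among the members below 10 CPM in isograft libraries, which have the fewest counts, 7 of 16 fell with a median of -0.40. At or above it 24 of 26 fell with a median of -0.54. A cut on the isograft level alone places members that fell in the upper group more readily. Of all genes 36.6% fell and 35.2% rose with at least 5 CPM in 3 libraries. In the main fit 29.1% fell and 28.7% rose, and with no filter 16.5% fell and 15.3% rose. The cause of the differences between settings was not tested.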
